A study of Canis lupus familiaris with 6 samples.

Results

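Interferon-stimulated genes and interferon regulatory factors were examined in 3 canine mammary tumor cell lines grown alone or with myeloid-derived suppressor cells (MDSCs). A list of 55 gene symbols was matched to the gene names of the probes on the arrays, controls excluded. Probes were found by name for 42 of the 55, among 13173 genes with a symbol and a tested probe. The symbols IFI6, IFI30, DDX58, IRF4, ADAR, SP110, PML, HERC6, CMPK2, SAMD9, TRIM21, GBP2 and IFITM3 matched no probe name and are not analysed here.

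The lines were P114, from an anaplastic cancer, CMT-U27, from a simple carcinoma, and CMT-U309, from a spindle cell tumor. For the co-culture of each line, MDSCs sorted from blood of healthy dogs were placed in a transwell insert, a porous cup that shares medium with the tumor cells but holds the cells apart, and the sample labels give at least 72 h, while the study's methods give a shorter time. The monoculture was the same line without MDSCs, and the labels give the same serum-containing medium for all samples. They name no genetic change and no drug. Cy5, a red dye, and Cy3, a green dye, marked the RNA of the cultures of a line, which were hybridized together to an Agilent canine 4x44K array. A second array of each line carried the same RNA pair with the dyes exchanged, which gave 6 arrays, 12 channels and 6 RNA samples. Each line is a single population grown once in each condition as far as the labels say. The test of the co-culture ratio therefore measures the spread between lines and not between repeated cultures. Both arrays of a line lay on 1 slide, and each slide held 1 line, so line and slide cannot be told apart.

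Interferons are cytokines that cells release when they sense foreign nucleic acid. Type I interferons and lambda interferons bind different receptors but activate the same transcription factor complex, which contains IRF9, enters the nucleus and switches on a shared set of genes. The products of that set block viral replication, attach the ubiquitin-like protein ISG15 to other proteins, and include the sensors and the IRF factors that amplify the response. Many tumor cell lines express part of the set without added interferon.

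Signals in this text are processed intensities of the scanner software, scaled so that every channel has a common median, on the log2 scale, and are called levels. A level is compared only between samples of the same probe. The co-culture ratio is the log2 of co-culture over monoculture on an array, and 1 on this scale is a 2-fold change. A channel was counted as measured where the software marked the spot as well above background. Between 53.0% and 81.0% of all spots were well above background in a channel, and precision is limited by how few arrays there are. By the brightest probe of each gene, 21 of the 42 genes were well above background in all 12 channels, 19 in some of them, and 2, SP100 and XAF1, in none. Over all genes with a symbol, 59.8% were well above background in 12 channels. No spot of the 42 genes was saturated.

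Each probe is a strand of 60 bases. The sequences below belong to the genes on which the results turn, and pairs are shown where probes of the same gene overlap (OAS2, OAS3), lie apart but gave the same order of the lines (MX1), or gave different answers (GBP1). Positions refer to canFam2, as in the deposited scanner output, and the tables used here hold no exon or UTR annotation of that build. Capitals mark the stretch that both probes of OAS2 or of OAS3 share, which was 24 bases for OAS2 and 42 bases for OAS3, so the probes of these genes are not independent measurements.
OAS2, brightest probe (chr26:13464566-13464625, plus strand): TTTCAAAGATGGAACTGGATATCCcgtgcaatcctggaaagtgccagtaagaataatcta
OAS2, other probe (chr26:13464530-13464589, plus strand): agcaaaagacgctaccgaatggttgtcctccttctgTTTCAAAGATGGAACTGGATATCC
OAS3, brightest probe (chr26:13435078-13435137, plus strand): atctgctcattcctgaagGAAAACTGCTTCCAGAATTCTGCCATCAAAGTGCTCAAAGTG
OAS3, other probe (chr26:13435096-13436485, plus strand): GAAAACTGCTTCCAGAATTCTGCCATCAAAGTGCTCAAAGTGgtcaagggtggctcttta
MX1, probe in the middle (chr31:38252743-38252802, plus strand): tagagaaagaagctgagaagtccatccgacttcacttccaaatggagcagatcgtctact
MX1, probe nearest the start of the gene (chr31:38246002-38246114, plus strand): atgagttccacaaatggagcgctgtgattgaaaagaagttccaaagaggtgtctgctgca
GBP1, brightest probe (chr6:62452889-62452948, plus strand): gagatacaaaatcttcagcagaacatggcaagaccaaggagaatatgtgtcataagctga
GBP1, other probe (chr6:62443855-62443914, plus strand): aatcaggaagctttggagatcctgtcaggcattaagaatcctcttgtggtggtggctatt
IRF7 (chr18:28698435-28698494, minus strand): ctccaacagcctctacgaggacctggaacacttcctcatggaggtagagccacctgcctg
IFI35 (chr9:23368586-23368858, minus strand): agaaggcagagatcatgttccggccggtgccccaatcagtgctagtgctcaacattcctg
ISG20 (chr3:54693503-54693562, plus strand): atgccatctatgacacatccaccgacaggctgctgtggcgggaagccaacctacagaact
Among the 61 probes of the 42 genes, the EIF2AK2 probe alone shared at least 20 bases in a row with a probe of another name. That stretch was 44 bases long, so the EIF2AK2 value may include signal from another transcript. Of the probes printed above, the MX1 probe at chr31:38246002-38246114, the IFI35 probe and the other OAS3 probe span more genome than their own length. Among the brightest probes of the 42 genes 8 do so, those of OAS1, IRF1, IRF3, IFI35, BST2, GBP5, USP18 and XAF1.

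The first comparison asked whether co-culture with MDSCs changed the expression of these genes in tumor cells. ISG20, an exonuclease that degrades viral RNA, was the single gene of the 42 with a higher signal in co-culture on all 6 arrays. Its log2 ratio was 0.62 and 0.69 on the arrays of P114, 0.20 and 0.50 in CMT-U27, and 0.56 and 0.26 in CMT-U309. The mean was 0.47 ± 0.13 (SE, n = 3 lines), which is 1.39-fold, with an unadjusted p of 0.00493 and an adjusted p of 0.498 in limma. With normexp background correction and loess normalization in place of the processed signals the ISG20 mean was 0.06 (unadjusted p 0.46 in limma). No gene of the 42 was lower on all 6 arrays. Across all genes, 2.61% were higher and 1.97% lower on all 6 arrays, so 1 gene higher and 0 lower is near the background.

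At unadjusted p under 0.05 and more than 2-fold, the thresholds of the study's methods, limma called 0 of the 42 genes higher and 0 lower, against 0.668% and 0.167% of all genes. After Benjamini-Hochberg adjustment 0 genes were called among the 42, against 0% of all genes. At an unadjusted p under 0.05 alone, 4 genes passed, all with a higher mean in co-culture, against 9.46% of all genes and 9.52% of the 42. These were ISG20, IRF2, IFIT5 and EIF2AK2. The median log2 ratio over the 42 genes was 0.02, and over all genes it was 0.003. The mean ratios ran from -0.62 for IRF8 to 0.68 for IRF2.

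IRF2, a factor that competes with IRF1 at interferon-responsive promoters, had the highest mean ratio and was well above background in all channels. Its ratio was 0.97 and 1.27 on the arrays of CMT-U27 and 1.05 and 1.06 on those of CMT-U309. In P114 it was -0.99 where the co-culture carried Cy5 and 0.74 on the dye-swap. The 4 arrays of CMT-U27 and CMT-U309 were therefore close to each other, while the P114 arrays pointed in opposite directions. The mean over the lines was 0.68 ± 0.25 (SE, n = 3), with an unadjusted p of 0.0229 and an adjusted p of 0.498 in limma. IFIT5, which binds viral RNA, had a mean of 0.38 ± 0.16, and EIF2AK2, the RNA-activated kinase that stops translation, had a mean of 0.35 ± 0.15. With normexp and loess the EIF2AK2 mean was 0.09 (unadjusted p 0.247 in limma), that of IFIT5 0.17 and that of IRF2 0.25. IFIT5 and EIF2AK2 were higher on 5 of 6 arrays, and the array in the other direction was that of P114 whose co-culture carried Cy5.

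The genes most often read as a sign of interferon exposure gave no common direction. ISG15 had ratios of 0.19 and -0.09 in P114, -0.38 and -0.17 in CMT-U27, and 0.58 and 0.64 in CMT-U309. Co-culture was thus lower on both arrays of CMT-U27 and higher on both arrays of CMT-U309. MX1, a GTPase that blocks influenza and other viruses, had ratios of 0.20 and -0.82 in P114, -0.12 and 0.16 in CMT-U27, and 0.87 and 0.64 in CMT-U309. In CMT-U309 all 3 MX1 probes had a higher mean in co-culture, by 0.76, 0.94 and 1.07. OAS1, an oligoadenylate synthetase that activates RNA degradation, had ratios of 1.26 and 0.52 in CMT-U309, 0.73 and 0.19 in CMT-U27, and -0.08 and -0.28 in P114. The other OAS1 probe, which passed the background flag in 2 of 6 channels of the co-culture, had a mean of -0.68 in CMT-U309, so the OAS1 probes differ in direction there. IRF7, the factor that amplifies interferon production, had mean ratios of -0.44 for P114, -0.18 for CMT-U27 and 0.18 for CMT-U309. IRF9, the DNA-binding part of the complex that interferon receptors activate, had 0.11, 0.04 and 0.04. IFIT1, which binds viral RNA, had a mean of 0.51 for P114, -0.66 for CMT-U27 and -0.06 for CMT-U309. However, it was detected above background in only 1 of the 6 channels of co-culture RNA.

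Among genes measured in all channels, the lowest mean ratios were small. MAVS, the mitochondrial adaptor of RNA sensing, had a mean of -0.19 ± 0.15, and IRF1, an activating factor, had -0.11 ± 0.15. GBP5, a guanylate-binding protein, had -0.06 ± 0.18, UBA7, the enzyme that activates ISG15, had -0.04 ± 0.13, and TMEM173, the adaptor of DNA sensing also called STING, had -0.04 ± 0.13. None of these 5 reached an unadjusted p of 0.05 in limma.

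Within a line there is no replicate culture, so the ratios of a line are given without a test. In P114, 0 genes of the 42 were over 2-fold higher and 0 over 2-fold lower in the mean of the dye-swap with the same sign on both arrays, against 0.569% and 1.41% of all genes. In CMT-U27, 4 were higher, against 6.34% of all genes, and 1 was lower, against 2.22%. The higher genes were IRF2, USP18, XAF1 and GBP1, and the lower gene was IRF8, which was well above background in 1 of its 4 CMT-U27 channels. In CMT-U309, IRF2 alone was higher, against 2.41% of all genes, and 0 were lower, against 1.17%. GBP1, a guanylate-binding protein, had ratios of 1.22 and 1.44 in CMT-U27, where it was well above background in all 4 channels. Its other probe had a mean of -0.04 there, so the GBP1 ratio holds for the printed brightest probe only. No channel of CMT-U27 was well above background for USP18, the protease that removes ISG15, or for XAF1, a proapoptotic gene.

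**Figure D1:**
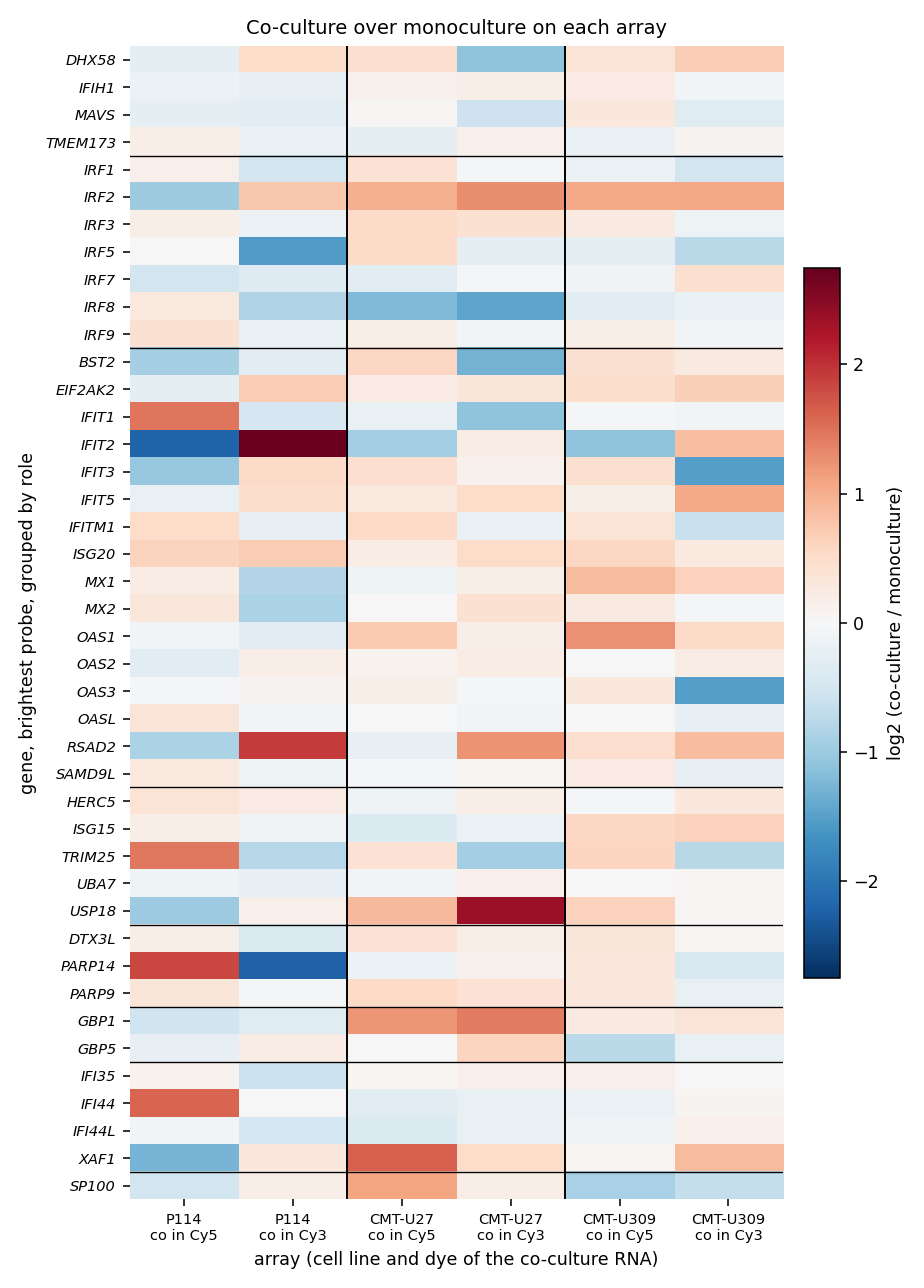
Log2 ratio of co-culture over monoculture on each of the 6 arrays (columns: cell line and dye of the co-culture RNA) for the 42 genes (lines of the map, brightest probe, grouped by role from sensors at the top to SP100 at the bottom), from blue (lower in co-culture) to red (higher). ISG20 is red on all 6 arrays, IRF2 is red on 5, and IFIT2 and PARP14 turn from one colour to the other between the P114 arrays.

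Dye-swap arrays carry the same RNA pair, so their ratios should have the same sign once both are turned to co-culture over monoculture. They had it for 11 of 42 genes on the P114 arrays (26.2%), 25 on those of CMT-U27 (59.5%) and 20 on those of CMT-U309 (47.6%). Over all genes the shares were 40.5%, 64.7% and 53.7%. Across the 42 genes, which are not independent replicates, the Pearson correlation of both arrays was -0.64 for P114, 0.39 for CMT-U27 and 0.17 for CMT-U309. Over all genes it was -0.36, 0.30 and -0.03. The P114 ratios therefore have no settled direction for most of these genes. The dye assignment of the labels was kept throughout. Whether it holds for both P114 arrays was not tested, and exchanging it on an array would turn the sign of that array's ratios and move every mean over the 3 lines. IFIT2 had -2.21 and 2.69 on the P114 arrays and PARP14 had 1.83 and -2.23, the reverse order. IFIT2 was not well above background in any P114 channel, and PARP14 was in 2 of 4. Among the 21 genes measured in all channels, the P114 correlation was -0.41, so the disagreement was not limited to dim probes. MX2, measured in all P114 channels, had 0.31 and -0.87. IFITM1, a membrane protein that restricts viral entry, differed by dye in CMT-U27 (0.55 and -0.17) and in CMT-U309 (0.38 and -0.61).

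With P114 left out, more genes passed, in the 42 and in all genes alike. IRF2 alone was then called higher at the study's thresholds, against 3.76% of all genes. An adjusted p under 0.05 was reached by 5 of the 42, GBP1, IFIT5, IRF2, ISG20 and OAS1, against 16.9% of all genes, and 11 of the 42 had an unadjusted p under 0.05, against 34.4% of all genes. Without CMT-U27 or without CMT-U309, ISG20 alone kept an unadjusted p under 0.05, against 2.93% and 3.23% of all genes.

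**Figure D2:**
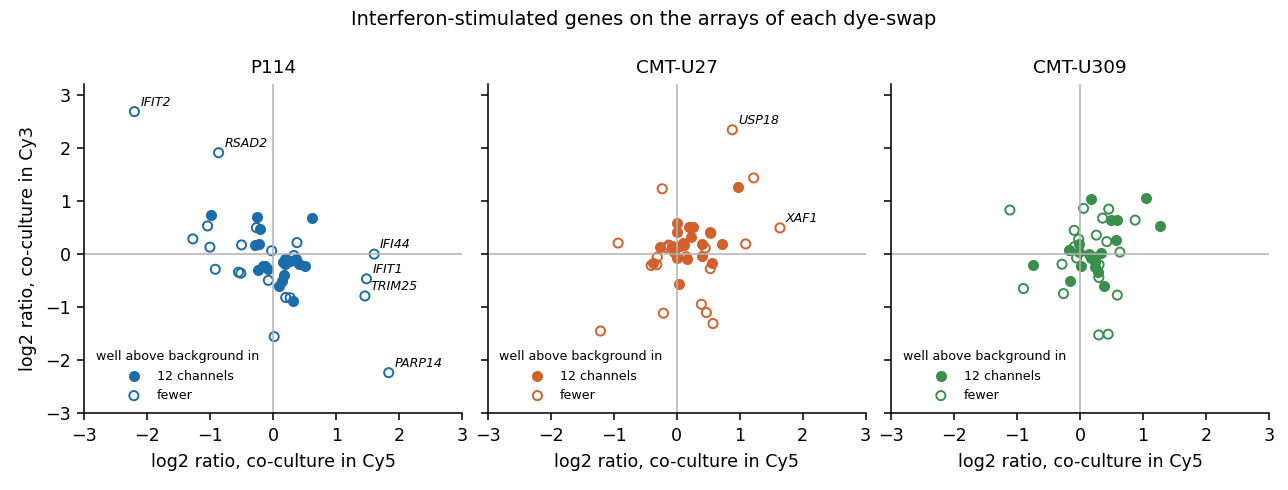
Log2 ratio of co-culture over monoculture on the array whose co-culture carried Cy5 (horizontal) against its dye-swap (vertical) for the 42 genes in each line. Filled points are genes well above background in all 12 channels and open points in fewer, and the P114 points run from upper left to lower right (Pearson -0.64), where agreement of the arrays would place them from lower left to upper right.

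The second comparison asked how the lines differ in the level of these genes, whatever the culture. P114 had the lowest levels of a large share of them. At an adjusted p under 0.05 and more than 2-fold, limma called 16 of the 42 genes (38.1%) lower in P114 than in both other lines, against 3.11% of all genes, and 0 higher than in both, against 2.67%. The 16 genes were ISG15, ISG20, MX1, IFIT2, IFIT3, IFI35, IFI44, IFI44L, IRF5, IRF7, HERC5, PARP9, PARP14, DTX3L, TRIM25 and GBP1. The fit used 6 RNA samples with line and culture as terms, so the monoculture and co-culture of a line served as its replicates. Its standard errors and p-values measure how line differences varied with culture, and not the spread between repeated cultures of a line. The line is also the slide, so these are differences between 3 populations, each on its own slide. In bulk RNA, fewer cells that express a gene and less RNA in each cell cannot be told apart.

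ISG15 had a level of 6.77 in monoculture and 6.82 in co-culture of P114. It had 10.76 and 10.49 in CMT-U27, and 11.69 and 12.30 in CMT-U309. Every P114 sample lay below every sample of the other lines, with no overlap. The difference was -3.83 ± 0.20 (SE) against CMT-U27, which is 14.2-fold, and -5.20 ± 0.20 against CMT-U309, which is 36.8-fold, with adjusted p of 2.18e-07 and 5.21e-08 in limma. CMT-U27 was itself 2.59-fold below CMT-U309.

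MX1 followed the same order. Its levels were 4.45 and 4.14 in monoculture and co-culture of P114, 8.48 and 8.50 in CMT-U27, and 9.51 and 10.27 in CMT-U309. The differences were -4.19 ± 0.24 and -5.59 ± 0.24 (adjusted p 5.27e-07 and 1.31e-07 in limma), and 1 of the 4 P114 channels was well above background. The other MX1 probes gave -3.22 and -2.59 against CMT-U27 and -4.81 and -4.47 against CMT-U309, so all 3 probes placed P114 lowest.

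Among the regulatory factors, IRF7 and IRF5 were lower in P114 than in both other lines, and the other 5 measured were not. IRF7 had levels of 4.99 and 4.56 in P114, 9.22 and 9.04 in CMT-U27, and 8.86 and 9.04 in CMT-U309. The difference was -4.36 ± 0.19 against CMT-U27 and -4.18 ± 0.19 against CMT-U309, while CMT-U27 and CMT-U309 differed by 0.18 ± 0.19 and did not pass the test. With normexp and loess the IRF7 differences were -1.90 and -1.90, and 2 of its 4 P114 channels were well above background. IRF5 was dim, with 1 of 4 P114 channels well above background. IRF1 had another pattern. Its levels were 9.10 and 9.28 in CMT-U27, 7.29 and 7.10 in P114, and 6.84 and 6.51 in CMT-U309, so CMT-U27 stood above both others. The difference was -1.99 ± 0.19 for P114 minus CMT-U27 and 2.52 ± 0.19 for CMT-U27 minus CMT-U309. IRF3, the factor that first responds to nucleic acid sensing, was 2.07-fold higher in CMT-U27 than in CMT-U309. For IRF2 and IRF9 no pair of lines was called, and IRF8 was called only between CMT-U27 and CMT-U309, with -1.11 ± 0.40, and was well above background in 1 of 4 and 3 of 4 channels.

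Of the sensors and adaptors IFIH1, DHX58, MAVS and TMEM173, 0 of 4 were called in any pair of lines. Their median differences were -0.11, -0.30 and -0.24 for P114 minus CMT-U27, P114 minus CMT-U309 and CMT-U27 minus CMT-U309. IFIH1, which senses long viral RNA, had levels of 9.98 and 9.79 in P114, 9.99 and 10.13 in CMT-U27, and 10.27 and 10.35 in CMT-U309. The largest IFIH1 difference was -0.42 ± 0.15, with an adjusted p of 0.0541 in limma. IRF9 levels lay between 9.83 and 10.59 in all 6 samples.

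Of the 16 effectors of RNA decay and viral restriction, 4 were lower in P114 than in both others: MX1, ISG20, IFIT2 and IFIT3. ISG20 had 7.14 and 7.79 in P114, 8.70 and 9.05 in CMT-U27, and 8.97 and 9.38 in CMT-U309. IFIT2 and IFIT3, which bind RNA together, were not well above background in any P114 channel, so only bounds hold. IFIT3 was at least 1.72-fold higher in CMT-U27 and at least 1.61-fold higher in CMT-U309 than in P114. IFIT2 was at least 1.65-fold higher in CMT-U27, and for CMT-U309 the bound gave no fold.

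The OAS genes did not share this order. OAS1, OAS2 and IFIT5 were the 3 genes called higher in P114 than in CMT-U27. OAS2 had levels of 11.76 and 11.70 in P114, 10.57 and 10.72 in CMT-U27, and 11.62 and 11.71 in CMT-U309. P114 and CMT-U309 overlapped, and CMT-U27 lay below both. The difference was 1.09 ± 0.13 for P114 minus CMT-U27 and -1.02 ± 0.13 for CMT-U27 minus CMT-U309, and the overlapping OAS2 probe gave 1.45 and -1.12. OAS1 had 9.48 and 9.30 in P114, 7.94 and 8.40 in CMT-U27, and 9.31 and 10.20 in CMT-U309. The difference of P114 minus CMT-U27 was 1.22 ± 0.22 by this probe and -0.94 by the other, so the direction for OAS1 depends on the probe. OAS3 and OASL were called in 0 pairs. SAMD9L, a restriction factor, was highest in CMT-U27, with 12.03 and 12.04, against 9.60 and 9.67 in P114 and 9.28 and 9.28 in CMT-U309. The difference was -2.40 ± 0.13 for P114 minus CMT-U27 and 2.76 ± 0.13 for CMT-U27 minus CMT-U309, and its other probe gave -2.45 and 2.46. BST2, which tethers budding virus at the membrane, was well above background only in CMT-U309, in 3 of 4 channels. It was at least 1.20-fold higher there than in CMT-U27, and against P114 the bound gave no fold.

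In the ISG15 system, ISG15, HERC5 and TRIM25 were lower in P114 than in both others, 3 of 5 measured. HERC5, the main ligase for ISG15, had 5.24 and 5.54 in P114, 6.38 and 6.41 in CMT-U27, and 8.59 and 8.72 in CMT-U309. The difference between P114 and CMT-U27 was -1.01 ± 0.19, near the 2-fold limit, and the other HERC5 probe, well above background in 3 of 12 channels, gave 0.39 for it. TRIM25, a ligase that activates RNA sensing, was near the limit in both pairs, with -1.02 ± 0.27 against either line. USP18 was well above background in 3 of 4 channels of CMT-U309 and in none of the other lines. It was at least 3.09-fold higher in CMT-U309 than in P114 and at least 4.17-fold higher than in CMT-U27. UBA7 was called in 0 pairs.

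All 3 genes of the PARP9 group were lower in P114 than in both others. PARP9 and DTX3L form a ligase complex, and PARP14 modifies proteins with ADP-ribose. DTX3L had levels of 8.75 and 8.64 in P114, 11.02 and 11.32 in CMT-U27, and 10.36 and 10.54 in CMT-U309, well above background in all channels. Its differences were -2.47 ± 0.15 and -1.76 ± 0.15, and the other tested DTX3L probe gave -2.67 and -1.72. With normexp and loess the difference against CMT-U309 turned to 0.49, while that against CMT-U27 was -1.78. On the dye-swap array of CMT-U309 the local background beside the DTX3L spot was 13666 and 2813 in the dyes, above the spot's own signal of 169 and 1226, and normexp subtracts that local background. PARP9 differed by -2.42 ± 0.20 and -2.38 ± 0.20, and PARP14 by -4.37 ± 0.19 and -3.35 ± 0.19. In P114, PARP9 was well above background in 3 of 4 channels and PARP14 in 2 of 4. With normexp and loess PARP9 differed by -0.79 and -0.98, and PARP14 by -1.55 and -0.98. No gene of the group was then called lower than in both lines. All 3 genes lie on chromosome 33 of canFam2, between positions 28685685 and 28839242.

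IFI35, IFI44 and IFI44L were lower in P114 as well. IFI35, well above background in all channels, had 6.73 and 6.48 in P114, 10.79 and 10.89 in CMT-U27, and 9.99 and 10.05 in CMT-U309. The differences were -4.23 ± 0.16 and -3.41 ± 0.16 (adjusted p 2.01e-08 and 1.88e-07 in limma). IFI44 differed by -2.02 ± 0.26 against CMT-U27 and -4.17 ± 0.26 against CMT-U309. A further IFI44 probe gave -0.89 and -2.50, and the remaining probe was in no channel well above background. IFI44L differed by -2.79 ± 0.19 and -2.97 ± 0.19, and its other probes gave -3.03 and -3.17, and -0.39 and -0.98. GBP1 was not well above background in P114 and was at least 3.33-fold higher in CMT-U27 and at least 6.17-fold higher in CMT-U309. The other GBP1 probe gave -0.23 against CMT-U27 and -0.88 against CMT-U309, so these bounds hold for the brightest probe only. GBP5 was 2.32-fold higher in CMT-U309 than in CMT-U27.

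**Figure D3:**
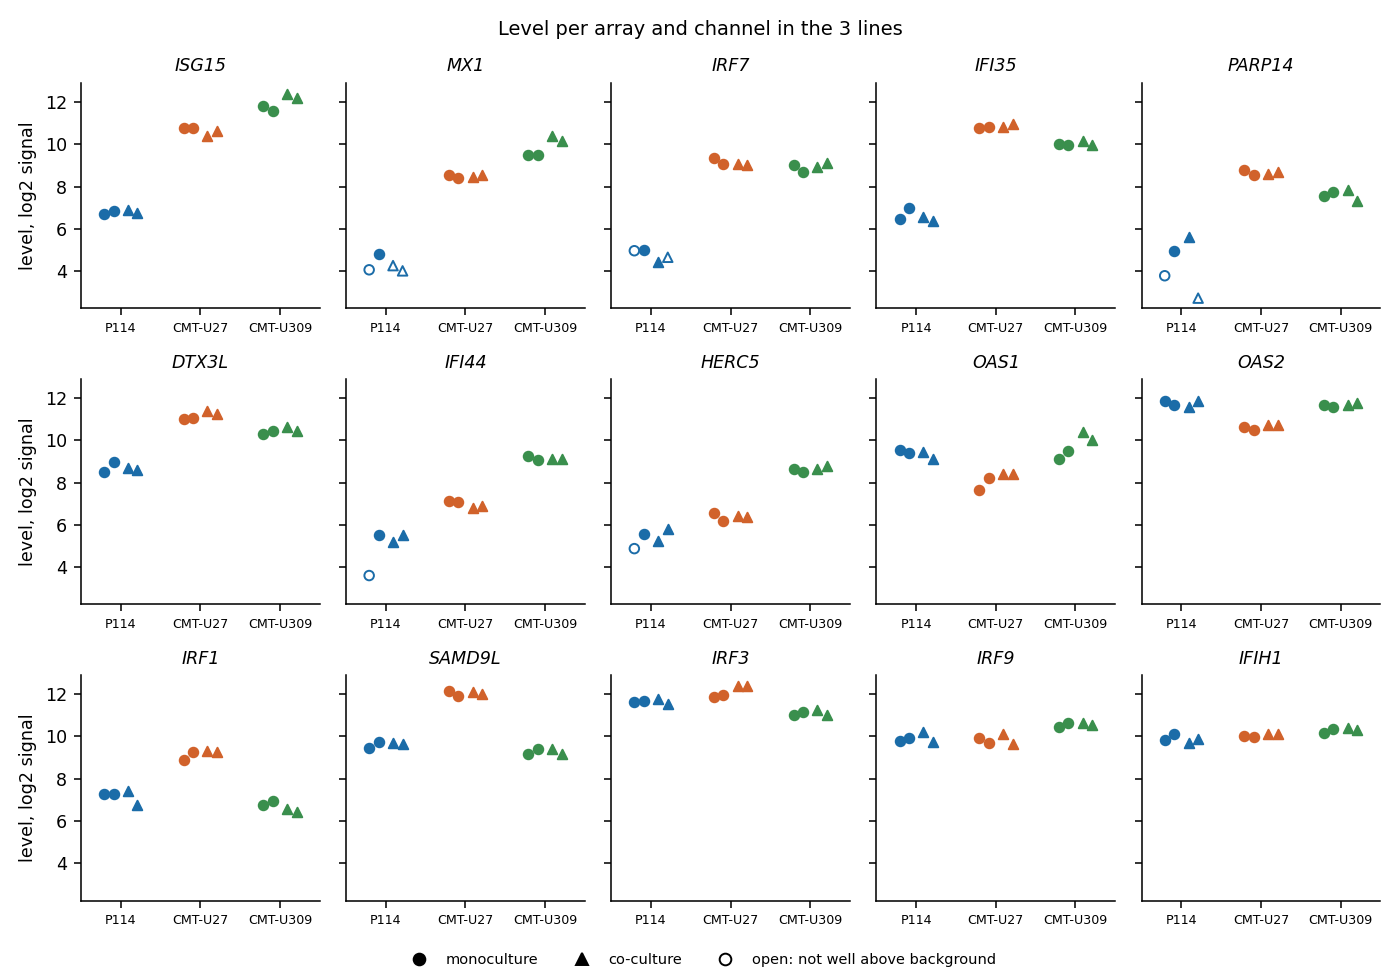
Level (log2 scaled processed signal) of 15 genes in each array and channel, by cell line (horizontal), with monoculture as circles and co-culture as triangles, and open symbols where the spot was not well above background. Only points within a panel can be compared: ISG15, MX1, IRF7, IFI35 and DTX3L have all P114 points below all others, OAS2 has its lowest points in CMT-U27, SAMD9L and IRF1 have their highest there, and the sample means of IFIH1 lie between 9.79 and 10.35 and those of IRF9 between 9.83 and 10.59.

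In pairs of lines, 19 of the 42 genes were lower in P114 than in CMT-U27, against 15.4% of all genes, and 3 were higher, against 11.4%. Against CMT-U309, 19 were lower in P114, against 8.15%, and 0 were higher, against 7.42%. Between CMT-U27 and CMT-U309, 4 were higher in CMT-U27, against 18% of all genes, and 11 were lower, against 14.1%. The 4 were PARP14, SAMD9L, IRF3 and IRF1. The median difference over the 42 genes was -0.54 for P114 minus CMT-U27, -0.84 for P114 minus CMT-U309 and -0.24 for CMT-U27 minus CMT-U309, beside medians of 0.04, 0.08 and 0.08 over all genes. In 14 genes no pair of lines was called, and the same share was not counted over all genes. Without scaling of the channels the median over all genes moved to -0.43, -0.69 and -0.24 for the same pairs, and P114 against CMT-U27 then had 0 higher and 20 lower of 41 genes, CMT-U27 against CMT-U309 2 higher and 14 lower. Over all genes 6.22% and 27.1% were then called for the first pair and 12.2% and 20.8% for the other.

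The count of genes lower in P114 depended on how the signals were corrected and normalized. Of the 16 genes, 12 were not well above background in all 4 P114 channels. The alternative with normexp correction, an offset of 50 and loess changes both steps. For levels it also used Aquantile normalization between arrays in place of the median scaling, and it had no intensity filter. Under it 5 of the 42 genes stayed lower in P114 than in both others, against 0.873% of all genes. They were IFI35, IFI44L, IRF7, ISG15 and MX1. ISG15 then differed by -2.60 and -4.14, and MX1 by -1.67 and -2.84. Among the 21 genes well above background in all channels, DTX3L, IFI35, ISG15 and ISG20 were lower than in both others. Over all genes so measured the share was 2.02%, and in that subset P114 had to be measured too. Under normexp with loess, DTX3L and ISG20 were among those that lost the call, although they were measured in all channels. In monoculture alone, with no test, ISG15 differed by -3.99 and -4.92 and IRF7 by -4.23 and -3.87.

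**Figure D4:**
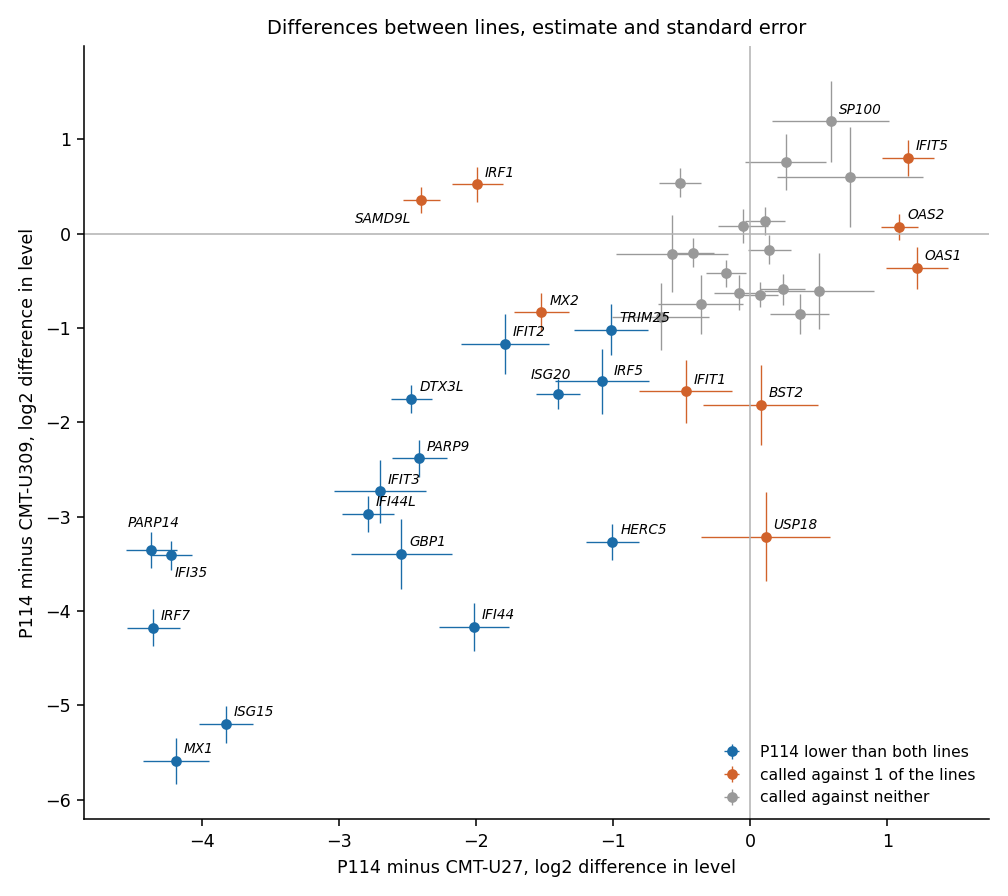
Difference in level of each of the 42 genes between P114 and CMT-U27 (horizontal) and between P114 and CMT-U309 (vertical), in log2 units, with standard errors from limma as bars. The axes share the P114 samples, which by itself draws points along the diagonal. The 16 genes called lower in P114 than in both lines (blue) lie in the lower left, and SAMD9L and IRF1 lie at the upper left.

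Upstream genes of the pathway were taken from fixed lists. Of 9 measured interferon ligands and receptors, 1 was called higher in co-culture and 0 lower, against 0.668% and 0.167% of all genes. That gene was IL28RA, the lambda interferon receptor chain, with a mean ratio of 1.31 ± 0.35 (SE, n = 3), an adjusted p of 0.498 in limma and arrays from -0.40 to 2.53. It was well above background in 1 of 6 channels of each culture, so the size of its ratio is uncertain. IL29, a lambda interferon, had -0.19 ± 0.20, and IFNAR1, a chain of the type I receptor, had 0.03 ± 0.20. Of 5 measured genes of signal transduction, 0 were called, with STAT2 at 0.11 ± 0.14. Of 4 inhibitors, SOCS3, which blocks JAK kinases, was called lower, with -1.02 ± 0.27, and it was detected in 3 of the 6 channels of co-culture RNA. SOCS1 had 0.15 ± 0.12 and was higher on all 6 arrays.

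STAT2, a factor that carries the receptor signal to the nucleus, was lowest in CMT-U27, at 6.98, against 9.15 in P114 and 10.98 in CMT-U309. Differences were 2.17 ± 0.17 for P114 minus CMT-U27 and -1.84 ± 0.17 for P114 minus CMT-U309. The order of the lines for STAT2 was therefore unlike that for ISG15, MX1 and IRF7.

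The lines were checked against cell type markers. Of 4 measured epithelial markers, EPCAM, KRT19 and CDH1 were highest in CMT-U27. EPCAM was at 15.42 there, 9.18 in P114 and 6.68 in CMT-U309, and KRT19 at 16.03, 9.67 and 4.70. KRT14, a basal keratin, went the other way, with 11.05 in CMT-U27, 11.86 in P114 and 12.58 in CMT-U309. VIM, a marker of mesenchymal cells, was at 16.86 for P114, 10.19 for CMT-U27 and 16.23 for CMT-U309, so P114 lay nearer to CMT-U309 than to CMT-U27 in VIM, and further from it in ISG15 and MX1. Of 17 myeloid markers, 14 were measured and 3 were well above background in all 12 channels. ITGAM, SPI1 and LYZ were in 0 of 12. Of the 14, 0 were called higher and 0 lower in co-culture, and their log2 summed signal was 10.72 in co-culture and 10.73 in monoculture of P114, 13.74 and 12.96 in CMT-U27, and 10.65 and 10.64 in CMT-U309. S100A8, which epithelial cells also express, had a mean level of 13.06 in CMT-U27 and 8.75 in P114, and was lower still in CMT-U309. On the CMT-U27 arrays its co-culture ratio was 0.89 and 0.82, and that of S100A9 was 0.84 and 0.76. CD68 (0.36 and 0.36) and ITGB2 (0.19 and 0.02), well above background in all 12 channels, were also higher on both of these arrays. So were CSF1R, SPI1 and LYZ, which were well above background in 0 of 4 CMT-U27 channels. CSF3R (-0.56 and -1.78) and TYROBP (-1.50 and -1.12) were lower on both, each well above background in 2 of 4 CMT-U27 channels. PTPRC, ITGAM, FCER1G, LAPTM5 and AIF1 changed sign between the CMT-U27 arrays. The S100A8 ratio was 0.14 and -0.54 in P114, and -0.05 and -0.73 in CMT-U309. The part of MDSC RNA in the ratios was not tested beyond these markers.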

How the data were processed

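The authors deposited, for each array, the scanner output of Agilent Feature Extraction, with the intensity of every spot in both dyes, its local background, a processed intensity and flags. The file headers give version 10.10.1.1 and the submitters' notes 10.7.3.1. Processed signals are background-subtracted and adjusted between dyes. A deposited table of log10 ratios of the same arrays was used as an alternative. Control spots and outlier spots were left out, each channel was scaled to the same median, spots of a probe were averaged, and a probe was kept only if its highest signal exceeded 10. For each gene the probe with the highest mean signal was used. One DTX3L probe of the 61 was not tested because a spot was an outlier.

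Co-culture ratios were averaged over each dye-swap and tested against 0 over the 3 lines with limma 3.58.1 in R 4.3.3 (lmFit, eBayes with a trend). Levels were fitted on line and culture over 6 RNA samples. Benjamini-Hochberg adjustment covered 40699 probes of 43603. Bounds were set after loess and Aquantile normalization, as the mean of the brighter line over the lowest signal well above background. The fits were tested on simulated data. Probe sequences were copied from the scanner output, and tables and plots were made with pandas 2.3.3 and matplotlib 3.10.9.

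The genes and lists were chosen with earlier results of these data known. Genes were named by a rule: those with the same sign on all 6 arrays, the 5 largest mean ratios in each direction among genes measured in all channels, up to 3 per line and direction, up to 6 called genes per pair of lines and direction, and ISG15, MX1, IFIT1, OAS1, IRF7 and IRF9. Members beyond the rule were named for their role after their values were seen. Alternatives were normexp with loess, no scaling, quantile normalization, the deposited ratios, other filters, other tests, each line left out, each dye orientation alone and a replicate block. Normexp with loess had no intensity filter, and for levels it included Aquantile normalization between arrays.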

Additional observations from a re-analysis of the deposited data

Results flagged for a closer look

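In 4 genes well above background in all 12 channels, both arrays of a line had the sign opposite to both arrays of another. The share of all genes with this pattern was not counted. The difference between the lines was not tested. The log2 ratio of ISG15 in CMT-U27 minus that in CMT-U309 was -0.88, from means of -0.27 and 0.61. For OAS1 it was -0.64 in P114 minus CMT-U27 and -1.07 in P114 minus CMT-U309, with P114 at -0.18, CMT-U27 at 0.46 and CMT-U309 at 0.89. For IFIH1 the difference of P114 minus CMT-U27 was -0.34, from -0.19 and 0.15. For GBP5 the difference of CMT-U27 minus CMT-U309 was 0.77, from 0.30 and -0.47. The GBP5 ratios on the CMT-U27 arrays were 0.006 and 0.58, so its sign there rests on a value near 0.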

How the results depend on the processing

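Of 2096 values of single genes under the alternatives, 150 had a sign other than the value in the text, and in 148 of these neither value was called. The others were DTX3L in P114 minus CMT-U309, which turned from -1.76 to 0.49 under normexp with loess, and IFIT2 in co-culture, which was -0.09 and was 1.24 with co-culture RNA in Cy3 alone. The median co-culture ratio of the 42 genes was 0.02, and was -0.01 without scaling and with the deposited ratios, and -0.03 with Cy3 alone. For co-culture, 4 genes had an unadjusted p under 0.05 in limma. The deposited log10 ratios, the methods' t-test and eBayes without a trend left 2. The share of all genes that passed was not counted for these settings, so the fall cannot be read as particular to the 42 genes. Leaving out 1 line at a time gave 1 to 11, the genes called higher from 0 to 1, those passing the adjusted p from 0 to 5, and the high end of each came without P114. With co-culture RNA in Cy5 alone, 1 gene was called lower (IFIT2, against 0.524% of all genes), the median log2 ratio of the 42 genes was 0.13, and that in CMT-U309 was 0.23. With co-culture RNA in Cy3 alone, 3 genes were called higher (IFIT2, IRF2 and RSAD2), 1 passed the adjusted p and 9 the unadjusted p, against 5.59%, 5.65% and 23% of all genes. The cause of these shifts was not tested.

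For the lines, normexp with loess called 1 gene higher and 9 lower in P114 than in CMT-U27, 7 lower in P114 than in CMT-U309, and 6 lower in CMT-U27 than in CMT-U309, against 4.76%, 6.3%, 3.79% and 6.49% of all genes. It called 3 higher in CMT-U27 than in CMT-U309 (DTX3L, IRF1 and SAMD9L), against 6.6%. Without scaling, 41 genes were tested. P114 then had 0 higher and 20 lower than CMT-U27, and 29 lower than CMT-U309, and CMT-U27 had 2 higher and 14 lower than CMT-U309, against 6.22%, 27.1%, 30.4%, 12.2% and 20.8% of all genes. Over the 21 genes well above background in all channels, the lower counts were 7, 4 and 4. Over all genes so measured the shares were 15.4%, 5.25% and 9.58%. Quantile normalization called 1 gene higher in P114 than in CMT-U309 (SP100) and 2 higher in CMT-U27 than in CMT-U309. Over all genes these shares were 6.77% and 15.2%.

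Array numbers mark the dye of the co-culture RNA. Arrays with number 1 correlated at -0.22, 0.03 and 0.40 between lines and those with number 2 at 0.47, 0.51 and 0.61, and nothing in the labels ties a number to a shared culture or day. With the number as a replicate block over 6 arrays, 0 genes were called higher and 0 lower in co-culture. An unadjusted p under 0.05 in limma was reached by 5. The counts between lines were 3 and 19, 0 and 19, and 4 and 11, as without the block. The shares of all genes were not counted under the block, so these counts cannot be set beside a background. Beside the DTX3L and IFIT2 values, 613 co-culture values of single genes did not move past their spread or threshold, 32 moved and 4 passed a threshold they had missed. For line differences these were 1188, 176 and 21, and 60 lost their call.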

Other observations

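Genes of antigen processing and interferon-inducible chemokines, from a fixed list of 14 of which 11 were measured, were also compared between the lines. Against CMT-U27, 9 of the 11 were lower in P114 and 1 higher, against 15.4% and 11.4% of all genes, with a median difference of -2.14. Against CMT-U309, 4 of the 11 were lower in P114 and 2 higher, against 8.15% and 7.42% of all genes, with a median of -0.91. CMT-U27 was also higher than CMT-U309 in 8 of the 11 and lower in 1, against 18% and 14.1%, with a median of 1.89. PSMB9, a subunit of the immunoproteasome, had mean levels of 10.27 for P114, 14.86 for CMT-U27 and 11.37 for CMT-U309. CXCL10, a chemokine for T cells, had 6.95, 9.83 and 5.30, and CIITA, the activator of MHC class II genes, had 4.69, 10.91 and 3.51. CIITA was well above background in 1 of 4 channels of P114 and 1 of 4 of CMT-U309, so its low levels there are uncertain. PSMB8, another immunoproteasome subunit, was highest in CMT-U309 instead, at 7.84 against 4.34 in P114 and 3.11 in CMT-U27. In P114 and in CMT-U27 it was well above background in 1 of 4 channels each. In co-culture 0 of the 11 were called, and the median log2 ratio was -0.02.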
